A study of Homo sapiens with 8 samples.

Results

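Chromatin remodellers of the BAF, CHD, ISWI and INO80 classes were followed in RNA from H1 human embryonic stem cells after knockdown of NAT10. The 45 genes were chosen by symbol as ATPases and subunits of the 4 classes, and Ensembl identifiers were matched to symbols. Of these, 44 were among the 17546 genes of the table, made up of 21 of 22 BAF genes, 13 CHD and NuRD genes, 5 ISWI genes and 5 INO80-class genes. SMARCB1, the BAF core subunit, is not analysed here. The design asks which transcripts differ when NAT10, the RNA cytidine acetyltransferase, is reduced. NAT10 knockdown (4 libraries) meant H1 cells infected with GFP-marked lentivirus carrying an shRNA against NAT10, and control (4 libraries) meant H1 cells infected with the same kind of virus carrying a negative control shRNA. Cells of both groups were cultured for 48 h, enriched for GFP and grown on in TeSR-E8 medium with puromycin at 0.5 ug/ml. All libraries come from 1 cell line, the shRNA sequences are not given in the labels, and no rescue group was among the samples, so effects of lower NAT10 and of the shRNA itself cannot be told apart.

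Remodellers are motors of the SNF2 family that spend ATP to slide, eject or exchange nucleosomes. BAF, the mammalian SWI/SNF complex, opens chromatin at enhancers and promoters and comes in canonical (ARID1A or ARID1B), polybromo-containing (ARID2, PBRM1, BRD7) and non-canonical (BRD9) forms. Embryonic stem cells are known for a BAF form built on SMARCA4, SMARCC1 and SMARCD1, whereas neurons use other paralogs at several positions. CHD proteins carry chromodomains, and CHD3 and CHD4 power the NuRD complex, which joins remodelling to histone deacetylation. ISWI motors space nucleosomes into regular arrays, and INO80-class motors exchange or evict histone H2A variants with help from the RUVBL1 and RUVBL2 ATPases.

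NAT10 itself had 1647, 1592, 1625 and 1644 normalized counts (reads divided by a size factor per library) in NAT10 knockdown replicates 1 to 4, against 2207, 2285, 2048 and 2173 in control replicates 1 to 4. The groups did not overlap, and NAT10 RNA in knockdown cells was 74.7% of the control level (log2 fold change -0.42, SE 0.0378, adjusted p = 5.88e-14). Each library held between 15574631 and 16305014 reads. Whether replicates were grown as independent cultures is not stated in the labels. The p-values below therefore reflect variation among libraries, part or all of which could be technical. In bulk RNA, a smaller share of cells carrying a transcript and less of it per cell cannot be told apart. Of 12 stem cell markers, 9 were higher and 0 lower in knockdown cells. The 12 summed to 122814 to 126449 normalized counts in knockdown and 95308 to 98475 in control libraries. DNMT3B alone averaged 49902 in knockdown and 36393 in control libraries, so the sum does not describe every marker. The core factor POU5F1 was listed at only 13.2 to 27.8 normalized counts in knockdown and 19.8 to 31.9 in control libraries, with 63.5% of its transcript windows shared with copies elsewhere. Of 8 neural markers 6 were in the table (3 higher, 1 lower), with PAX6 listed only through its knockdown reads. Of 7 mesoderm and endoderm markers only MIXL1 was in the table (higher), and of 7 fibroblast markers 4 were (2 higher, 1 lower). In the same test (limma, adjusted p under 0.05) 64.7% of all genes passed, 32.3% higher and 32.4% lower. The part of these markers' cells in the results was not tested.

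In NAT10 knockdown cells, 24 of the 44 remodeller genes were higher, 11 were lower and 9 did not pass at an adjusted p under 0.05 (limma across all genes, 4 against 4 libraries). Over all 17546 genes 64.7% passed, 32.3% higher and 32.4% lower. The remodellers' own shares were 79.5% passed, 54.5% higher, with 11 of 44 lower. Depth bears on such shares, since 42 of the 44 had a mean of at least 5 CPM (reads of the gene scaled to a common library total). Among all genes of that level 73.1% passed, 40.1% higher and 32.9% lower, beside 24 higher and 10 lower of the 42. The median log2 fold change was 0.13 for the 44 genes and 0.0013 for all genes. All of these changes were small, with 0 of 44 genes reaching 2-fold, although 9.59% of all genes passed the test at 2-fold or more. Of the 35 genes that passed, 28 changed by less than 1.5-fold, and the range ran from a log2 fold change of -0.81 for SMARCD3 to 0.71 for SMARCA1. Groups of libraries did not overlap for 30 of the 44 genes, where 56.7% of all genes did not overlap. Neither this share nor the one at 2-fold was computed for genes of at least 5 CPM, so both comparisons are unmatched for depth.

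Directions are relative to the size factors chosen by the authors. With library totals as the only scaling, the median log2 fold change was 0.024 for the 44 genes and -0.11 for all genes. With that scaling 18 of the 44 were higher and 15 lower, while 65.1% of all genes passed, 23.2% higher and 41.9% lower. SMARCA4, SMARCD1, BCL7C, GATAD2A, SMARCA5 and SRCAP then no longer passed as higher, and BRD7, ACTL6A, CHD6 and BAZ1A passed as lower.

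**Figure D1:**
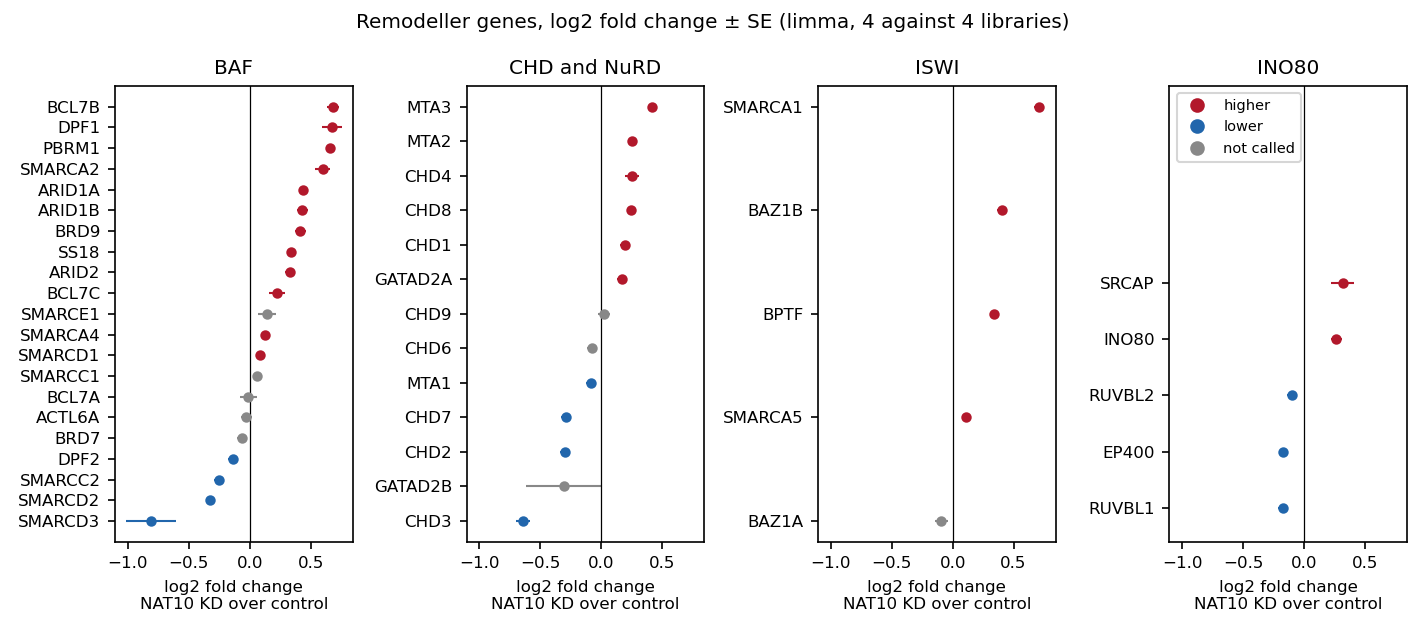
Log2 fold change of each remodeller gene, NAT10 knockdown over control, by class, with the standard error from limma as a bar (on the log2(value + 1) scale). Red genes were higher, blue genes lower and grey genes did not pass. BCL7B, DPF1, PBRM1, SMARCA2 and SMARCA1 lie farthest to the right, and SMARCD3 and CHD3 farthest to the left.

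**Figure D2:**
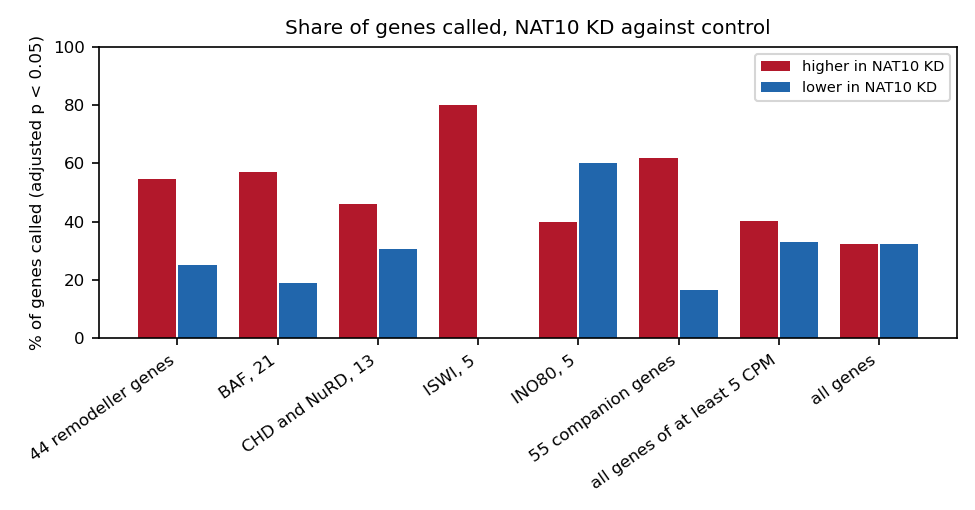
Share of genes called higher (red) or lower (blue) in NAT10 knockdown, in percent, for the 44 remodeller genes, each class, 55 companion genes (46 of the same classes and 9 other SNF2-family genes), all genes of at least 5 CPM and all genes. The ISWI and INO80 bars stand on 5 genes each.

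Reads of some remodellers are hard to assign to a single gene. In CHD4, 87.2% of 50-base windows of the principal transcript also lie in transcripts of other GENCODE 29 genes, mainly the overlapping gene AC006064.6, and in SRCAP 85.3% do, mainly in AC106886.5. In SMARCE1 the share was 60.3%, with the overlapping gene AC073508.2 and a pseudogene among those that share it, and in BRD7 56.8%, with ADCY7 and pseudogenes. BCL7C shared 26.0% with MIR762HG on the opposite strand. The other 39 genes shared less than 25%. How the authors' counting treated such reads is not given in the sources used here, so levels of these 5 genes are uncertain. GATAD2B, a NuRD subunit, was also counted very low, at 12.5 ± 4.45 normalized counts in knockdown and 16.7 ± 7.69 in control cells (SD, n = 4 each), with 0% of its windows shared.

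BAF can run on either of 2 motors, and the minor one rose. SMARCA2 (BRM) had 456, 408, 432 and 467 normalized counts in NAT10 knockdown replicates 1 to 4, against 275, 308, 299.7 and 280.1 in control replicates 1 to 4. Every knockdown library lay above every control library, 1.52-fold higher on average (log2 fold change 0.60, SE 0.0630, adjusted p = 8.10e-12). SMARCA4 (BRG1), the motor of the stem cell form, had 7618, 6889.7, 7346 and 7836 normalized counts in knockdown libraries, against 7164, 6899.8, 6520.0 and 6649 in control libraries. Its groups overlapped, and the test gave a small rise (log2 fold change 0.12, SE 0.0344, adjusted p = 0.00161) that did not pass with library totals (log2 fold change 0.015). Per kilobase of transcript SMARCA4 remained far above SMARCA2, at 1282 ± 70.4 against 75.1 ± 4.44 normalized counts per kb in knockdown cells, and 1176 ± 49.2 against 49.5 ± 2.71 in control cells (SD, n = 4 each). The read ratio of SMARCA2 to SMARCA4 was 0.0594 ± 0.000464 in knockdown and 0.0428 ± 0.00337 in control libraries.

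The 3 ARID subunits, which bind DNA, and PBRM1 and BRD9 rose. ARID1A, which defines canonical BAF, had 3763, 3844, 3753 and 3929.6 normalized counts in knockdown libraries, against 2998, 2922, 2615 and 2779 in control libraries (log2 fold change 0.44, SE 0.0364, adjusted p = 5.05e-15). Its paralog ARID1B had 1617, 1465, 1556 and 1729 in knockdown, against 1180.5, 1275, 1132 and 1138 in control libraries (log2 fold change 0.43, SE 0.0444, adjusted p = 7.33e-12). Both moved by nearly the same amount, and the ratio of ARID1B to ARID1A was 0.416 ± 0.0257 in knockdown and 0.418 ± 0.0201 in control libraries (two-sided exact permutation p = 0.914, n = 4 each). PBRM1, the polybromo subunit with its row of acetyl-lysine readers, had 2045, 2119.6, 2011 and 2198 normalized counts in knockdown libraries, against 1326, 1353, 1315 and 1302 in control libraries. That was 1.58-fold higher with a wide gap between the groups (log2 fold change 0.66, SE 0.0382, adjusted p = 6.13e-21), and ARID2, which anchors the same form, rose by 0.33 (adjusted p = 3.72e-09). BRD7, the bromodomain partner of ARID2 and PBRM1, did not pass (-0.066, adjusted p = 0.109). BRD9, the bromodomain protein of the non-canonical form, had 1177, 1045, 1090.1 and 1139.6 in knockdown, against 870.1, 839, 778 and 855 in control libraries (log2 fold change 0.41, SE 0.0456, adjusted p = 3.25e-11).

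Core and accessory BAF subunits moved in both directions. SMARCC1, one of the scaffold pair, did not pass (0.057, adjusted p = 0.0994), while its paralog SMARCC2 fell by 0.25 on the log2 scale (adjusted p = 2.43e-07). Among the SMARCD adaptors, which bridge BAF to transcription factors, SMARCD1 rose slightly (0.083, adjusted p = 0.0195), a call that was lost without control replicate 4 (0.065) and a direction that turned with library totals (-0.026). SMARCD2 fell (-0.33, adjusted p = 1.62e-11). SMARCD3, a form of muscle, heart and neural cells, had 34.0, 34.7, 15.2 and 20.5 normalized counts in knockdown libraries, against 35.8, 49.6, 40.2 and 52.9 in control libraries. These few reads gave the lowest fold change of the 44 genes (log2 fold change -0.81, SE 0.206, adjusted p = 0.000677), with knockdown replicates 1 and 2 just below the lowest control library.

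The histone-reading DPF subunits moved apart. DPF1, a form of neurons, had 241, 233, 247 and 223 normalized counts in knockdown libraries, against 159, 152, 148 and 132 in control libraries (log2 fold change 0.67, SE 0.0817, adjusted p = 4.62e-10). DPF2, the widely expressed form, fell by 0.14 on the log2 scale (adjusted p = 0.00164) and had 530.2 ± 13.6 normalized counts per kb in knockdown and 583 ± 14.3 in control cells, beside 144 ± 6.45 in knockdown and 90.5 ± 6.93 in control cells for DPF1. The 6 neural markers in the table summed to 11847 to 12283 normalized counts in knockdown and 5425 to 5815 in control libraries. That sum came nearly all from NES, so it does not describe the list. PAX6, a defining marker, averaged 25.1 ± 2.05 in knockdown and 2.42 ± 0.964 in control libraries, a level left uncertain by 74.9% of its windows being shared with ELP4. Only knockdown libraries held 10 or more PAX6 reads, and the table has no gene with fewer than 4 such libraries. PAX6 could therefore be listed only by being higher in knockdown. TUBB3 rose (0.98, with 89.5% of its windows shared), DCX fell (-1.50) and MAP2 did not pass (-0.16). SOX1 and NEUROG2 were not among the genes analysed here. Of other neural BAF subunits, the neuronal actin-like subunit ACTL6B averaged 19.4 ± 6.58 normalized counts in knockdown and 24.4 ± 7.65 in control libraries and did not pass (adjusted p = 0.219), and SS18L1 fell (-0.30, adjusted p = 3.84e-06).

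BCL7B, a small nucleosome-binding subunit, had 795, 816, 855 and 833 normalized counts in knockdown libraries, against 494, 536, 513 and 510.2 in control libraries. It was 1.61-fold higher (log2 fold change 0.68, SE 0.0490, adjusted p = 2.10e-17), whereas BCL7A did not pass (-0.011, adjusted p = 0.898) and BCL7C rose by 0.22 (adjusted p = 0.00231). SS18, a subunit of canonical and non-canonical BAF, rose by 0.34 (adjusted p = 1.37e-11). The actin-like subunit ACTL6A (-0.027, adjusted p = 0.584) and the HMG-box subunit SMARCE1 (0.14, adjusted p = 0.0925) did not pass, although SMARCE1 did without knockdown replicate 3 (0.20, adjusted p = 0.0237).

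Of the 8 CHD motors, 3 rose, 3 fell and 2 did not pass. CHD1, which binds trimethylated lysine at active promoters and is needed for open chromatin in mouse embryonic stem cells, had 1568, 1758, 1576 and 1718 normalized counts in knockdown libraries, against 1387, 1467, 1461 and 1448 in control libraries (log2 fold change 0.20, SE 0.0406, adjusted p = 3.16e-05). CHD2, its closest relative, went the other way, with 1545, 1456, 1456 and 1499.6 in knockdown, against 1765, 1899.9, 1875 and 1783 in control libraries (log2 fold change -0.30, SE 0.0385, adjusted p = 2.67e-09). The 2 groups were separate for both genes, and CHD2 was the higher of the pair per kb only in control cells, with 159 ± 4.56 against 204 ± 12.0 for CHD1 in knockdown and 196 ± 7.11 against 178 ± 4.51 in control cells.

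CHD7, the enhancer-bound motor mutated in CHARGE syndrome, had 1697, 1648, 1562 and 1687 normalized counts in knockdown libraries, against 2054, 2148, 1937 and 1937 in control libraries (log2 fold change -0.29, SE 0.0393, adjusted p = 7.24e-09). CHD8, a motor linked to autism that is also known to bind beta-catenin, had 3829.8, 3795, 3891 and 3978 in knockdown, against 3294, 3202, 3314 and 3245 in control libraries (log2 fold change 0.25, SE 0.0329, adjusted p = 5.24e-09). All 4 knockdown libraries were below the controls for CHD7 and above them for CHD8. CHD6 had 1513, 1439, 1544 and 1562 in knockdown, against 1574, 1664, 1583 and 1568 in control libraries, a separation that did not pass (log2 fold change -0.077, SE 0.0389, adjusted p = 0.0795). CHD9 had 649, 709, 644 and 647 in knockdown, against 630.4, 661, 636 and 679.6 in control libraries, with overlapping groups (log2 fold change 0.022, SE 0.0497, adjusted p = 0.712).

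NuRD genes showed a fall of one motor and a rise of several subunits. CHD3 (chromosome 17, 7884806 to 7912760, hg38, plus strand) had 295, 315, 327 and 345 normalized counts in knockdown libraries, against 533, 507, 493 and 471 in control libraries. Knockdown cells kept 64.0% of the control level (log2 fold change -0.64, SE 0.0608, adjusted p = 2.84e-13). CHD4, the main NuRD motor in stem cells, had 618, 636, 656 and 614 in knockdown, against 614, 473, 509 and 529 in control libraries (log2 fold change 0.25, SE 0.0576, adjusted p = 0.000149). The CHD4 groups touched without overlapping, since control replicate 1 was close to the lowest knockdown library, and its level is uncertain because of the shared windows. MTA3, a NuRD scaffold, had 2673, 2644, 2788 and 2655 in knockdown, against 1941, 2009.9, 1998 and 2109 in control libraries (log2 fold change 0.42, SE 0.0361, adjusted p = 1.49e-14). MTA2 rose by 0.26 (adjusted p = 6.39e-08) and MTA1 changed by -0.085 (adjusted p = 0.0393), the largest adjusted p of the 35 calls. That call was lost in 7 of 16 other settings, among them without knockdown replicate 2 (-0.062) and without control replicate 1 (-0.054). GATAD2A, which links the deacetylase module of NuRD to its motor, rose by 0.17 (adjusted p = 0.000394), and GATAD2B did not pass (adjusted p = 0.38) but did without control replicate 4 (-0.66).

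**Figure D3:**
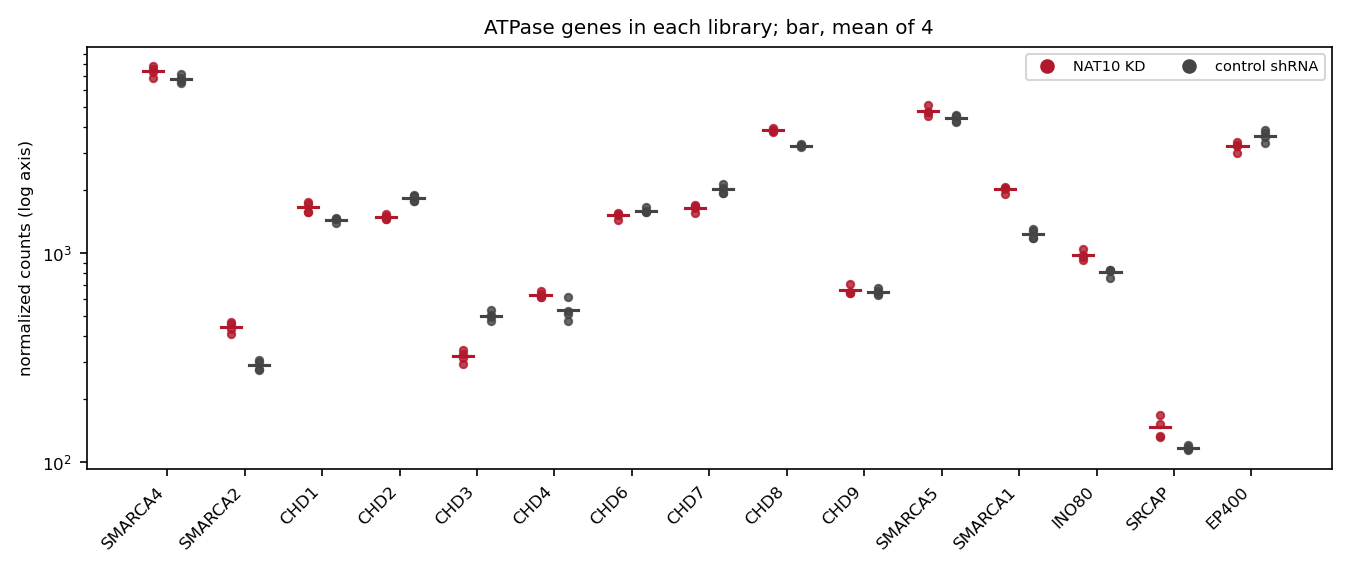
Normalized counts (log axis) of 15 remodeller ATPase genes in each of the 8 libraries, NAT10 knockdown in red and control in grey, with the mean of 4 libraries as a bar. The groups are apart for SMARCA2, CHD2, CHD3, CHD7, CHD8 and SMARCA1, among others, and overlap for SMARCA4, CHD9, SMARCA5 and EP400. Counts are not divided by length, so heights of different genes are not to be compared.

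In the ISWI class, SMARCA1 (SNF2L) showed the largest rise of all 44 genes. SMARCA1 (chromosome X, 129446501 to 129523500, hg38, minus strand) had 2022, 2056, 1926 and 2065 normalized counts in knockdown libraries, against 1185, 1303, 1176 and 1269 in control libraries. The groups were far apart, 1.64-fold (log2 fold change 0.71, SE 0.0400, adjusted p = 1.98e-21). SMARCA5 (SNF2H), the motor most cells rely on, had 4746, 4713, 4516 and 5102 in knockdown, against 4259.8, 4530.2, 4565 and 4285 in control libraries, with overlap (log2 fold change 0.11, SE 0.0348, adjusted p = 0.00432), and its call was lost without knockdown replicate 4 (0.079) and with library totals (0.0036). Per kb SMARCA1 stood at 492 ± 15.5 in knockdown and 301 ± 15.3 in control cells, beside 602 ± 30.8 in knockdown and 557 ± 20.2 in control cells for SMARCA5. BAZ1B (WSTF), a partner of SMARCA5 deleted in Williams syndrome, had 2675, 2592, 2592 and 2759 normalized counts in knockdown libraries, against 2067, 2017, 1934 and 2011 in control libraries (log2 fold change 0.40, SE 0.0360, adjusted p = 4.44e-14). BPTF, the reader subunit of the NURF complex in which SMARCA1 is the motor, rose by 0.34 (adjusted p = 1.18e-12), and BAZ1A, the ACF partner of SMARCA5, did not pass (-0.094, adjusted p = 0.126).

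The 5 genes of INO80-class motors and their ring ATPases passed the test, in both directions and by small amounts. Among all genes of at least 5 CPM 73.1% passed, so passing was common at this depth. INO80, the motor that slides nucleosomes and acts on H2A variants, had 976, 923, 958 and 1046 normalized counts in knockdown libraries, against 823, 833, 758 and 833 in control libraries (log2 fold change 0.26, SE 0.0463, adjusted p = 2.12e-06). SRCAP, which deposits the H2A variant at promoters, had 169, 133, 132 and 152 in knockdown, against 121, 114, 115 and 117 in control libraries (log2 fold change 0.32, SE 0.0972, adjusted p = 0.00403) at a level left uncertain by the shared windows. EP400, the motor that works together with the TIP60 acetyltransferase, had 3295, 3016, 3247 and 3408 in knockdown, against 3774, 3876, 3576 and 3369 in control libraries (log2 fold change -0.17, SE 0.0390, adjusted p = 0.00021), with knockdown replicate 4 above control replicate 4. The ring ATPases shared by these complexes fell slightly. RUVBL1 had 1826, 1857, 1941 and 1731 in knockdown, against 1928, 2109, 2074 and 2193 in control libraries (log2 fold change -0.17, SE 0.0399, adjusted p = 0.000158), and RUVBL2 had 2606, 2497, 2812 and 2600.3 in knockdown, against 2827, 2752, 2706 and 2984 in control libraries (log2 fold change -0.10, SE 0.0374, adjusted p = 0.0172). The groups overlapped for both, and the RUVBL2 call was lost without knockdown replicate 2 (-0.076) and without control replicate 4 (-0.072).

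Per kilobase of transcript, the 15 motors spanned a wide range of levels. SMARCA4 was highest and SMARCA5 next, at 602 ± 30.8 normalized counts per kb in knockdown and 557 ± 20.2 in control cells (SD, n = 4 each). CHD8 followed with 522 ± 10.8 in knockdown and 439.7 ± 6.78 in control cells, above SMARCA1 with no overlap between libraries in either group. EP400 stood at 253 ± 12.8 in knockdown and 284 ± 17.5 in control cells. INO80 at 152 ± 8.05, CHD7 at 142 ± 5.33 and CHD6 at 140.0 ± 5.04 overlapped in knockdown cells, whereas in control cells CHD7 at 175 ± 8.82 was above CHD6 at 148 ± 4.15 and INO80 at 126 ± 5.58. Near the low end, CHD3 at 43.6 ± 2.81 was below CHD9 at 50.5 ± 2.37 in knockdown cells, and above it in control cells, at 68.1 ± 3.53 against 49.7 ± 1.75. CHD4 and SRCAP were not placed in this order, because most of their transcript windows are shared.

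Ratios between related subunits in the same library do not depend on how libraries are scaled. Of 22 pairs, chosen with earlier results of these data known, 17 differed between the groups with no overlap (two-sided exact permutation p = 0.0286 each, the floor for 4 against 4 libraries, and 0.0370 after Benjamini-Hochberg adjustment over the 22 pairs). Single genes did not overlap in 56.7% of the whole table, and no such share was computed for ratios of other gene pairs. Some pairs share a gene, such as CHD7 under CHD6, CHD8 and CHD9, so the pairs are not independent. The balance moved toward DPF1 over DPF2, with a ratio of 0.159 ± 0.00409 in knockdown and 0.0905 ± 0.00762 in control libraries (log2 difference 0.81). It moved away from CHD3 over CHD4, at 0.508 ± 0.0361 in knockdown and 0.950 ± 0.0931 in control libraries (log2 difference -0.90), where the CHD4 level is uncertain, as are those of SRCAP and BRD7 in their pairs. BCL7B over BCL7A was 2.63 ± 0.231 in knockdown and 1.63 ± 0.152 in control libraries, and SMARCA1 over SMARCA5 was 0.423 ± 0.0133 in knockdown and 0.280 ± 0.0166 in control libraries.

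SMARCD2 over SMARCD1 fell to 0.399 ± 0.00787 in knockdown libraries, against 0.529 ± 0.0134 in control libraries, and SMARCC2 over SMARCC1 to 0.237 ± 0.0166, against 0.294 ± 0.0117. SMARCC1 and SMARCD1, the paralogs of the stem cell form, made up a larger part of these pairs in knockdown cells, whereas SMARCA4 made up a smaller part of its pair with SMARCA2. Other separated pairs were CHD8 over CHD7 (log2 difference 0.54), BAZ1B over BAZ1A (0.50), BRD9 over BRD7 (0.48), CHD2 over CHD1 (-0.50), EP400 over SRCAP (-0.49), MTA1 over MTA2 (-0.34), CHD9 over CHD7 (0.31), CHD6 over CHD7 (0.21), MTA3 over MTA2 (0.16) and the sparsely counted SMARCD3 over SMARCD1 (-0.89). The 5 pairs that overlapped were ARID1B over ARID1A, ARID2 over ARID1A, BCL7C over BCL7A, RUVBL2 over RUVBL1 and GATAD2B over GATAD2A, with adjusted p between 0.198 and 0.914 (exact permutation).

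**Figure D4:**
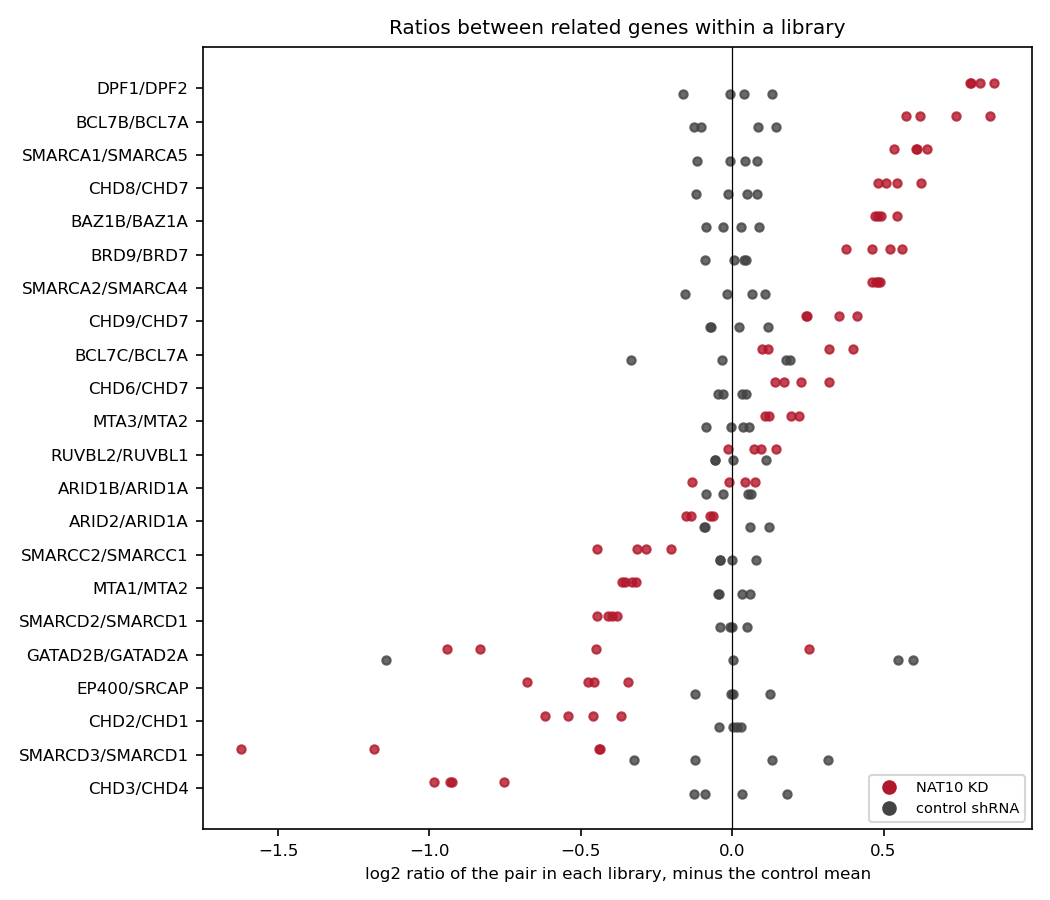
Log2 ratio of each pair of related genes in every library, minus the control mean of that pair, for NAT10 knockdown (red, upper row of each pair) and control (grey, lower row). DPF1/DPF2 lies farthest to the right, CHD3/CHD4 and SMARCD3/SMARCD1 farthest to the left, and ARID1B/ARID1A is centred on the controls.

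Transcripts of the remodellers were long, with a median principal transcript of 5829 bases, beside 3381 bases for 10905 protein-coding genes of at least 5 CPM. Spearman's rho between length and fold change was -0.053 across the 44 genes and -0.056 across the 10905 genes, given as a description since genes are not independent replicates.

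Position was shared by a few members. BAZ1B (73440398 to 73522278) and BCL7B (73536356 to 73558002) lie 14078 bases apart on chromosome 7 of hg38, on the minus strand, and both rose. The other 3 genes of the table within 100000 bases of them fell, namely the Wnt receptor FZD9 (log2 fold change -0.77, adjusted p = 1.13e-05), TBL2 (-0.20, adjusted p = 0.0191) and the glucose-responsive factor MLXIPL (-0.58, adjusted p = 1.96e-08). BCL7C and SRCAP on chromosome 16 were the other close pair, 92217 bases apart, and of 19 genes of the table in or within 100000 bases of that stretch 8 rose, 7 fell and 4 did not pass. The 250 bases upstream of the transcript start are printed for the neighbours BAZ1B and BCL7B, for SMARCA1 as the gene with the largest rise and for CHD3 as the motor with the largest fall. They come from RefSeq on GRCh38.p14, read 5′ to 3′ on the gene's strand, where chr7:73522294-73522543 is BAZ1B (minus), chr7:73557237-73557486 BCL7B (minus), chrX:129523491-129523740 SMARCA1 (minus) and chr17:7888539-7888788 CHD3 (plus). The listed starts of CHD3, BCL7B and SMARCA1 lie inside the GENCODE 29 genes, downstream of their first base. Capitals mark a CCAAT box (CCAAT) or a GC box (GGGCGG) on either strand.
BAZ1B: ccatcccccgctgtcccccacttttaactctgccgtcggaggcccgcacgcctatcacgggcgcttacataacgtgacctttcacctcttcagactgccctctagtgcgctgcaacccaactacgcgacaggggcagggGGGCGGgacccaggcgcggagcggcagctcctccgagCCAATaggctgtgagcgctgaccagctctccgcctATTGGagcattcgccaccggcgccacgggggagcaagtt
BCL7B: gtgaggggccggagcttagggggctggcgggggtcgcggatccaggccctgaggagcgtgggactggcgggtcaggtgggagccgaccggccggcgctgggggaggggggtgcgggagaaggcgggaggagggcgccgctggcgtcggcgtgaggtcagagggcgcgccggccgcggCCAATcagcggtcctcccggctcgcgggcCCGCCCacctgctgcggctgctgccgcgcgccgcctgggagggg
SMARCA1: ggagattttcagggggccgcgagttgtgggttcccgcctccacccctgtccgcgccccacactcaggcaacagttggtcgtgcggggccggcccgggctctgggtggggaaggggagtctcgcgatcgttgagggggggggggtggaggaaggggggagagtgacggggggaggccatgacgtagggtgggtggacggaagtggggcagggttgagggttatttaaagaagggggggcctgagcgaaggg
CHD3: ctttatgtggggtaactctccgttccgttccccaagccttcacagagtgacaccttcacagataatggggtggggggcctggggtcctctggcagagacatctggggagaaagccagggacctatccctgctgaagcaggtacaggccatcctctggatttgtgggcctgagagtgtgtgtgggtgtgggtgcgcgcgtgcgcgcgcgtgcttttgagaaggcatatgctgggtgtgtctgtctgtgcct

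BAZ1B and BCL7B each held both motifs, and the windows of SMARCA1 and CHD3 held neither these letters nor those of an E-box (CACGTG), of an ETS core (CCGGAAG), of a TATA box (TATAAA) or of the palindromic NRF1 core. A promoter was matched for 36 of the 44 genes, taking the first start listed per gene. Of these, 26 (72.2%) held a GC box and 14 (38.9%) a CCAAT box, where 42.3% and 33.0% of 27305 genes with a listed start did. Those 27305 genes were not limited to genes of the table or of at least 5 CPM. All of these motif comparisons are therefore unmatched for expression level. The E-box was found in 2 (5.56%, beside 6.49%), the ETS core in 5 (13.9%, beside 8.82%), the TATA box in 1 (2.78%, beside 11.1%) and the NRF1 core in 0 (beside 1.13%). Both strands were read, no listed motif contains another, and a match only describes letters.

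Companion genes, from the same classes and from other SNF2-family motors, were listed with earlier results of these data known. Of 58 listed, 55 were in the table (46 of the same classes and 9 others), and 34 were higher, 9 lower and 12 did not pass, with a median log2 fold change of 0.17. That is 78.2% passed, beside 64.7% of all genes and 73.1% of genes of at least 5 CPM. Of genes of that level 40.1% were higher and 32.9% lower, the shares to set beside the counts per list below. With library totals 24 were higher and 14 lower, while 23.2% of all genes were higher and 41.9% lower. INO80-class companions counted 19 higher and 2 lower of 25, with ING3, a reader subunit of the TIP60 complex, up by 0.96 (adjusted p = 4.31e-16), the TIP60 scaffold subunit EPC2 up by 0.57 and the acetyltransferase KAT5 (TIP60) by 0.48, with 40.0% of KAT5 windows shared with RNASEH2C. Of 9 companions on the CHD list, which holds NuRD subunits and the motors CHD5 and CHD1L, 4 rose and 2 fell. MBD3, the methyl-CpG-binding family protein that places NuRD on chromatin, averaged 1070.0 ± 56.7 normalized counts in knockdown and 548 ± 26.3 in control cells (log2 fold change 0.96, SE 0.0485, adjusted p = 2.28e-23), with 34.3% of its windows shared with overlapping genes. CHD5, the neural CHD motor, averaged 145 ± 7.64 in knockdown and 77.3 ± 5.53 in control cells (log2 fold change 0.90, SE 0.104, adjusted p = 1.16e-10), and CDK2AP1, a small NuRD subunit, rose by 0.56 with 28.5% of its windows shared. Among ISWI partners 5 of 7 rose and 1 fell, with BAZ2B up by 0.91, CHRAC1 by 0.30 and CECR2 by 0.29.

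BAF companions counted 3 higher and 1 lower of 5, with BICRA, a non-canonical BAF subunit, up by 0.56, the polybromo-form subunit PHF10 up by 0.35 and SS18L1 changed by -0.30. Of 9 other SNF2-family genes 3 rose and 3 fell. HLTF, a motor of replication fork remodelling, had 561, 569.7, 524 and 584 normalized counts in knockdown libraries, against 1450.2, 1508, 1528 and 1376 in control libraries, the largest change of any companion (log2 fold change -1.39, SE 0.0458, adjusted p = 4.72e-31). The recombination motor RAD54L changed by -0.51 (adjusted p = 2.22e-13) and SMARCAD1, which acts in heterochromatin and repair, rose by 0.55 (adjusted p = 4.94e-17).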

How the data were processed

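RNA-seq of 8 H1 libraries, 4 with NAT10 shRNA and 4 with control shRNA, was deposited as 1 table of normalized signal per gene. The submitters' processing notes name fastp 0.21.1, HISAT2 2.2.1, SAMtools 1.12, featureCounts 2.0.3, DESeq2 1.26.0 and hg38, with no settings. In the deposited signal, 100.0% of values were whole reads divided by 1 size factor per library (tolerance 1e-06), equal to median-of-ratios factors recomputed from those reads. No gene of the table had fewer than 4 libraries with 10 reads or more. Gene symbols were found for 17532 of 17546 identifiers. Groups came from the labels.

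Values were tested as log2(value + 1) with limma 3.58.1 (trend, robust) in R 4.3.3 over all 17546 genes, with Benjamini-Hochberg adjustment, and fold changes on that scale understate changes of low genes. Recovered reads were also tested with edgeR 4.0.16 (quasi-likelihood), which called 5556 genes higher and 5795 lower, and DESeq2 1.42.0. The limma fit was tested on simulated data. Pair ratios used exact permutation over libraries. Replicates of a group differed beyond sampling noise (chi-square per degree of freedom 1.79 to 2.52).

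Members and lists were chosen with earlier results of these data known. Values per library are given for the 15 motors, RUVBL1, RUVBL2 and other members that passed with a log2 fold change of at least 0.4 in size; companions are the 3 largest changes per list among those that passed at 5 CPM or more. Lengths and coordinates are from GENCODE 29, and promoters from RefSeq.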

Additional observations from a re-analysis of the deposited data

Results flagged for a closer look

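In 3 of 88 groups of 4 libraries, 1 library of a remodeller gene stood apart from the other 3 by Dixon's criterion (at the 95% level), where chance flags about 1 group in 20. CHD9 had 709 normalized counts in NAT10 knockdown replicate 2, and 644 to 649 in the other knockdown libraries. CHD6 had 1664 in control replicate 2, and 1568 to 1583 in the other control libraries. INO80 had 758 in control replicate 3, and 823 to 833 in the other control libraries. The cause of each was not tested.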

How the results depend on the processing

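Of the 35 remodeller genes that passed, 27 kept their call in every one of the 16 alternatives that was run on them (SMARCD3, below 5 CPM, has no value under that filter), and 6 genes that had not passed did so in at least 1. Library totals as scaling turned the sign of SMARCD1 (-0.026) and of the marker DPPA4 (-0.079), and gave 14 companions lower, against 9 as reported. That scaling shifts the median of all genes down, and no other cause was tested. Leaving out 1 library at a time gave 23 to 25 remodeller genes higher and 9 to 11 lower, and 32 to 33 companions higher and 8 to 9 lower. With the replicate number as a block, 24 were higher and 10 lower. Whether the numbers pair the samples is not stated in the labels. Deviations from group means correlated at -0.011, -0.038, -0.027 and -0.13 between same-numbered libraries. Differently numbered libraries gave -0.16 to 0.16. With 4 libraries per group these values cannot decide whether samples were made in pairs. Pairs past the threshold numbered 17 with a pseudocount of 0.5 or 5. The exact test of pairs was not run with a library left out. A 3-read floor was 0.184 to 0.193 CPM per library.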
